A study of Mus musculus with 22 samples.

Results

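The genes described here are 10 mouse genes that deal with stalled or collided ribosomes, or that signal from them: Gtpbp1, Gtpbp2, Pelo, Hbs1l, Zfp598, Ltn1, Nemf, Eif2ak4, Map3k20 and Atf4. They were taken by symbol from 55385 genes listed in the files, and the levels of each gene's transcripts were summed. All 10 were among the 20524 genes that passed the filter on low counts, and the smallest count of any of them in a library was 269.8.

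The study profiled messenger RNA bound to ribosomes (RiboTag), in which a Cre driver switches on an epitope-tagged ribosomal protein, RPL22, in 1 population of cells and the tagged ribosomes are pulled out of the tissue. All mice were 6 weeks old and carried 1 floxed Rpl22 allele (Rpl22 Fl/+) with a Cre. Dentate gyrus granule cells came from hippocampus and layer V cortical neurons from cortex, both with Rbp4-Cre, cerebellar granule cells from cerebellum with Gabra6-Cre, and inhibitory interneurons from hippocampus with Dlx6a-Cre, pooling 2 mice for each library. Astrocytes (Aldh1-cre in the labels, a tamoxifen-inducible Aldh1l1 line in the methods) and microglia (Tmem119-cre, also inducible) came from cortex. Per the methods, inducible lines received tamoxifen and the others did not, so that treatment and the split of neurons from glia cannot be told apart.

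Each of the 6 cell types had 3 biological replicates, giving 18 libraries of 38270477 to 71440915 estimated counts, and 4 further libraries were second sequencing runs of the same replicates. Interneurons and microglia were sequenced only in batch 2 and the libraries used for the other 4 types in batch 1. Markers of the intended type were higher in each of its libraries than in every other library for 5 of 5 genes in dentate gyrus granule cells, 6 of 6 in cerebellar granule cells, 8 of 8 in interneurons, 7 of 7 in astrocytes and 7 of 7 in microglia, but for 2 of 6 in layer V neurons. Etv1 was among the markers of both cerebellar granule cells, where it passed, and layer V neurons, where it then could not. Dentate gyrus libraries, made with the same driver, held 1545 to 1860 TPM (transcript abundance scaled for length and depth) of the summed layer V markers, against 2033 to 2080 in layer V libraries. Oligodendrocyte markers summed to 2766 to 2960 TPM in interneuron libraries and to 104 to 1023 TPM elsewhere, while 2 erythrocyte markers summed to 3489 to 7252 TPM in astrocyte libraries and to 17.7 to 902 TPM elsewhere. As these are bulk libraries, fewer cells of a type and less RNA per cell cannot be told apart.

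A ribosome that stops on an mRNA is struck by the one behind it, and the joined pair is read as a signal of trouble. ZFP598, the mouse ZNF598, ubiquitinates the small subunit of collided ribosomes. Pelota (Pelo) and the GTPase HBS1L enter stalled ribosomes and help to split them, and GTPBP1 and GTPBP2 are related GTPases implicated in resolving stalls. After splitting, NEMF binds the large subunit that still holds a nascent chain and brings in the ubiquitin ligase listerin (Ltn1), which marks the chain for degradation. Persistent stalling also activates GCN2 (Eif2ak4), the kinase that phosphorylates eIF2 and raises translation of Atf4, and ZAK (Map3k20), a kinase upstream of the stress kinases p38 and JNK.

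All 10 genes were detected in the ribosome-bound RNA of all 6 types, with Atf4 the highest of the 10 in every library (56.8 to 176 TPM). How much of a low level came from RNA of other cells was not tested. Map3k20 (1.32 to 12.2 TPM) had the lowest mean in 5 types and Ltn1 in interneurons. In cerebellar granule cells, Gtpbp1, at 99.3 TPM ± 3.5 (SD, n = 3), was close to Atf4, at 109.6 TPM ± 2.18. On summed TPM, 4 genes were highest in cerebellar granule cells (Gtpbp1, Hbs1l, Ltn1 and Nemf), 4 in interneurons (Pelo, Eif2ak4, Map3k20 and Atf4) and 2 in microglia (Gtpbp2 and Zfp598). Layer V neurons were lowest for 5 genes on summed TPM and for 3 (Zfp598, Eif2ak4 and Map3k20) on CPM, counts scaled for depth but not for length, or on protein-coding TPM. On CPM the highest type was also another for Pelo (layer V neurons), Gtpbp2 (cerebellar granule cells) and Atf4 (microglia), and on protein-coding TPM for Gtpbp2 and Zfp598 (cerebellar granule cells). The fold between the highest and the lowest type ran from 1.80 for Hbs1l to 7.07 for Map3k20.

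**Figure D1:**
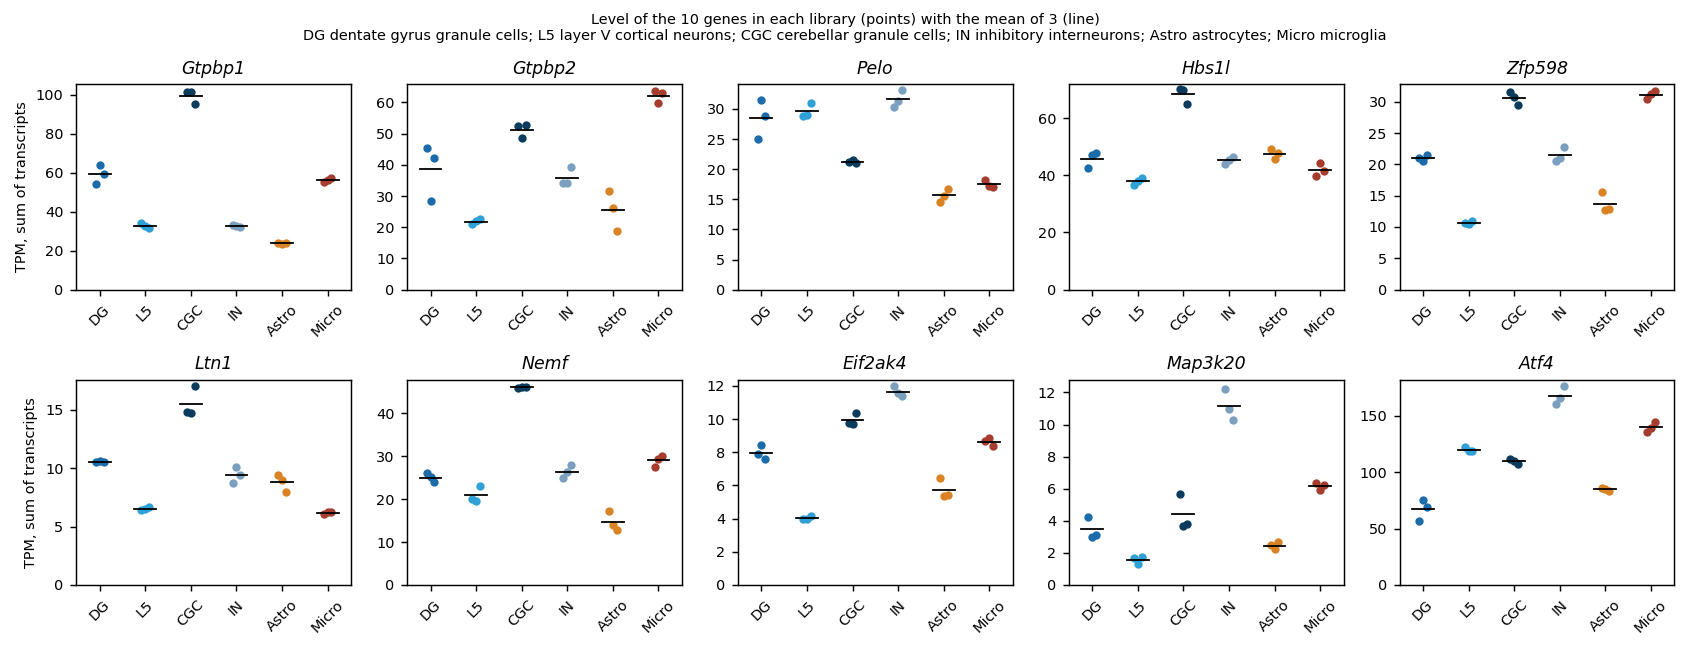
TPM (vertical axes, from 0, a scale for each gene) of the 10 genes in each of the 18 libraries, grouped by cell type; a point is a library and a line the mean of 3. Gtpbp1, Hbs1l, Ltn1 and Nemf stand highest in cerebellar granule cells, and the 3 interneuron libraries of Map3k20, at 10.3 to 12.2 TPM, stand above every other library.

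Tested together across the 6 types with edgeR's quasi-likelihood test, all 10 genes differed at an adjusted p of 0.05 or less, as did 97.3% of all genes tested, so the count says nothing particular about them. The range of the fitted log2 levels of the 10 had a median of 1.32, against 2.76 over all genes tested. Of the 150 pairs formed by a gene and 2 cell types, 124 differed (75.1% of such pairs over all genes) and 27 differed by at least 2-fold (45.3% over all genes). The differences of the 10 genes were thus called about as readily as those of other genes, and fewer of them reached 2-fold.

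Against the mean of the other 5 types, cerebellar granule cells had the largest median difference of the 10 genes, although more of the genes were called in 4 other types. In them 7 of the 10 genes were higher and 1 lower, where 36.0% and 46.1% of all genes were called in those directions. The median log2 difference of the 10 was 0.58, against -0.27 over all genes tested. Astrocytes had 8 lower and 2 higher (33.0% and 40.2% of all genes), with a median of -0.42 against 0.08. Layer V neurons had 7 lower and 2 higher (35.4% and 37.8%), microglia 7 higher and 3 lower (43.4% and 37.6%), interneurons 4 higher and 5 lower (35.1% and 32.2%), and dentate gyrus granule cells 3 higher and 2 lower (35.3% and 31.4%).

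A difference of at least 2-fold from the other 5 types was called 5 times. These were Gtpbp1, high in cerebellar granule cells, Map3k20, high in interneurons and low in layer V neurons, Eif2ak4, low in layer V neurons, and Atf4, low in dentate gyrus granule cells. The call for Atf4 was lost without dentate gyrus replicate 1, and 2 genes were called in cerebellar granule cells without their replicate 2. Over all genes, calls of that size in either direction made up 48.9% in cerebellar granule cells, 26.1% in interneurons, 33.5% in layer V neurons and 28.0% in dentate gyrus granule cells. Zfp598 in layer V neurons, at a log2 difference of -0.98, fell just short of 2-fold. No gene of the 10 reached 2-fold in astrocytes or microglia, where 34.8% and 49.7% of all genes did.

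**Figure D2:**
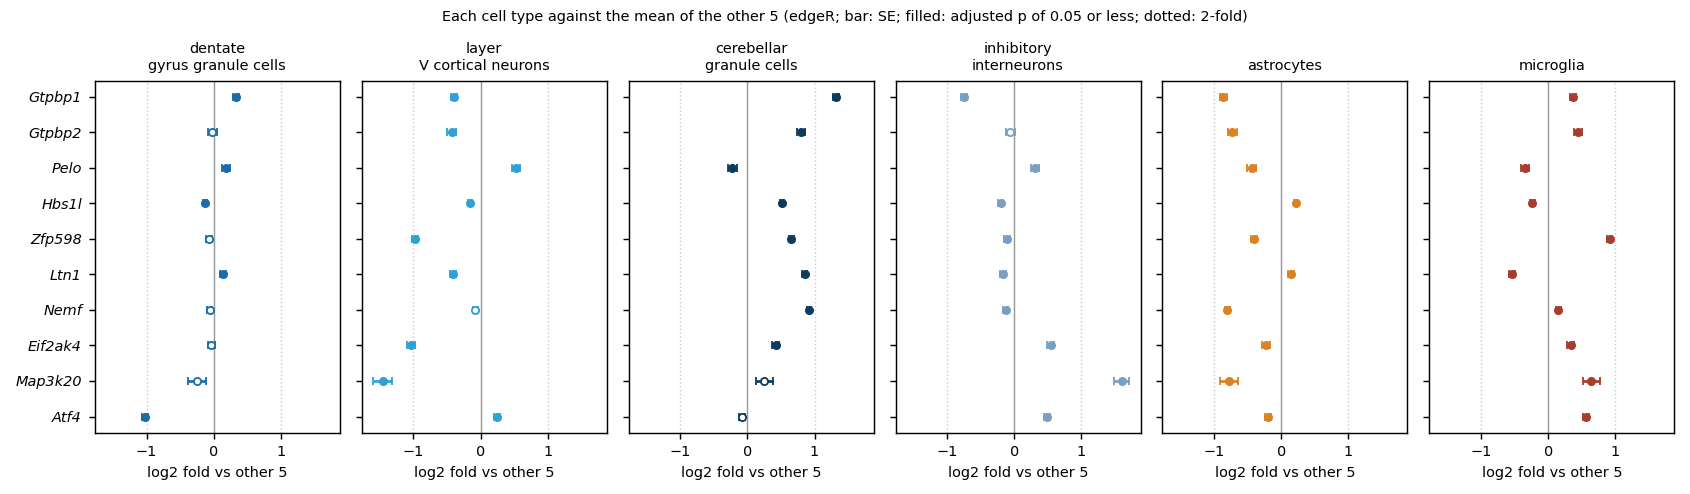
Log2 difference (horizontal axes) of each of the 10 genes between 1 cell type and the mean of the other 5, from edgeR, with its SE; filled points passed an adjusted p of 0.05 and dotted lines mark 2-fold. Gtpbp1 in cerebellar granule cells (1.32) and Map3k20 in interneurons (1.60) lie above the upper line, and Map3k20 (-1.46) and Eif2ak4 (-1.04) in layer V neurons and Atf4 in dentate gyrus granule cells (-1.02) below the lower one.

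Of the rescue GTPases, Gtpbp1 (chr15:79690845-79721479, plus strand, GRCm38) showed the clearest order of types. Its TPM was 101, 101 and 95.2 in the cerebellar granule cell libraries, 54.2, 63.8 and 59.4 in dentate gyrus granule cells, and 55.2, 56.3 and 57.2 in microglia. Layer V neurons held 34.0, 32.7 and 31.6, interneurons 33.3, 32.6 and 31.9, and astrocytes 24.1, 23.7 and 23.9. Cerebellar granule cells were above all other libraries, with no overlap, and 4.16-fold above astrocytes. Against the other 5 types the log2 difference was 1.32 ± 0.04 (SE; edgeR adjusted p = 2.5e-15). On CPM, microglia and dentate gyrus granule cells, next to each other in the order, were not separated (edgeR adjusted p = 0.70), nor were interneurons and astrocytes (edgeR adjusted p = 0.17).

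Gtpbp2 (chr17:46161032-46169370, plus strand) depended on which transcripts were summed. Over all of its annotated transcripts, TPM was 63.5, 59.8 and 62.9 in microglia, 52.5, 48.6 and 52.6 in cerebellar granule cells and 45.5, 28.5 and 42.2 in dentate gyrus granule cells. Interneurons followed with 34.3, 34.1 and 39.3, astrocytes with 31.5, 26.1 and 18.8, and layer V neurons with 21.0, 21.8 and 22.5. By this measure microglia were highest. The full-length coding transcript alone, Gtpbp2-201 with 602 codons, gave another order. It stood at 42.0, 41.7 and 41.3 TPM in cerebellar granule cells, 27.1, 27.2 and 26.4 in interneurons, and 24.8, 23.7 and 29.0 in dentate gyrus granule cells. Microglia held 23.2, 23.5 and 24.1, layer V neurons 17.8, 18.3 and 19.2, and astrocytes 14.2, 12.8 and 10.7. Cerebellar granule cells were highest and did not overlap any other type, while microglia fell among the other neuronal types. CPM, in which short transcripts weigh less than in TPM, also put cerebellar granule cells first, 0.30 ± 0.08 above microglia on the log2 scale (edgeR adjusted p = 0.0021).

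Much of the remainder came from Gtpbp2 transcripts annotated as keeping an intron. Introns 3, 7 and 11 of Gtpbp2-201 are 346, 313 and 255 bases long. They are kept in Gtpbp2-214, Gtpbp2-202 and Gtpbp2-208, which were chosen after their values were seen. Their borders (15 bases of exon in lower case and 15 of intron in capitals, plus strand, GRCm38) are shown because they are where these transcripts part from the spliced one.
Exon 3 to intron 3, chr17:46164364-46164393: ccggatggcagagaaGTATGCGCCCTCCTC
Intron 3 to exon 4, chr17:46164710-46164739: TCTTCTCTGTGACAGggttggggcagacat
Exon 7 to intron 7, chr17:46165983-46166012: tgcccagtcacccaaGTGAGCCTGCCTCTC
Intron 7 to exon 8, chr17:46166296-46166325: TTTGTCTCTTCACAGtgtcacccctatatt
Exon 11 to intron 11, chr17:46167876-46167905: aagatccacgcaaagGTGAGAGGGACCCAG
Intron 11 to exon 12, chr17:46168131-46168160: ACTTTTCTCCTGAAGgacaagctgcggaca
All 3 introns begin with GT and end with AG, the usual bases of a spliced intron.

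Retained-intron transcripts held 36.2% ± 1.07 (SD, n = 3) of the TPM of Gtpbp2 in microglia and 29.0% ± 4.53 in astrocytes. Cerebellar granule cells held 5.31% ± 3.56, layer V neurons 6.15% ± 1.93 and interneurons 11.5% ± 3.76. Dentate gyrus granule cells ranged widely, with 32.3%, 5.11% and 17.1% in their 3 libraries, so that 1 neuronal library reached the glial range. Gtpbp2-201 accounted for 77.6% of the gene in neuronal libraries and 44.2% in glial libraries on average, a difference of 33.4 points (exact two-sided permutation test over 12 and 6 libraries, p = 0.00011, adjusted p = 0.00054 over 20 transcripts). That test was added after the shares had been seen.

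The same direction held in other genes of the group. Nemf-201, the full-length Nemf transcript, fell from 84.4% of the gene in neurons to 68.4% in glia (exact permutation, adjusted p = 0.0011), Zfp598-203, which keeps an intron, was 5.08% in neurons and 19.0% in glia (exact permutation, adjusted p = 0.00065), and Map3k20-202, also with a kept intron, was 2.19% and 10.3% with no overlap of libraries (exact permutation, adjusted p = 0.00054). For Hbs1l and Gtpbp1 the retained-intron share was in microglia (15.9% ± 1.47 and 4.43% ± 0.30) above every other library, while astrocytes held 4.58% ± 1.98 and 1.38% ± 0.74, overlapping neurons. Over all genes, retained-intron transcripts made up 4.47% to 4.95% of TPM in microglia libraries and 2.42% to 3.04% in all others, astrocytes included. The part of this library-wide share in the values of single genes was not tested. Astrocyte libraries overlapped neuronal ones in the retained-intron share of Gtpbp2 (24.3% to 33.3% against up to 32.3%), Nemf (12.7% to 32.0% against up to 18.4%) and Zfp598 (11.9% to 22.7% against up to 15.3%), and did not for Map3k20 (7.10% to 13.7% against up to 5.79%). Libraries of a type are not independent samples of neurons or of glia, and an exact permutation of 4 types against 2 cannot fall below p = 0.0667.

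**Figure D3:**
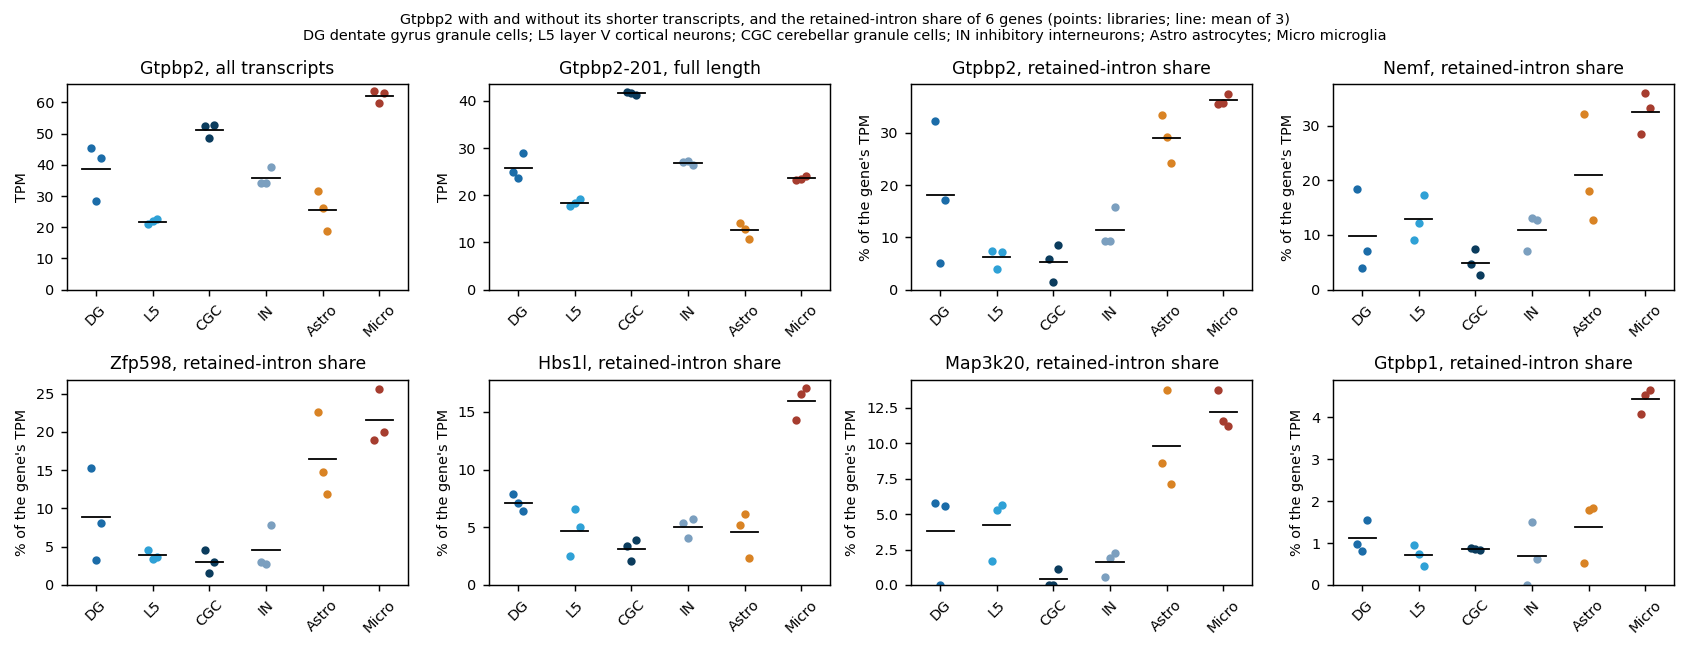
TPM of Gtpbp2 over all transcripts and of Gtpbp2-201 alone (first pair of panels), and the percentage of the TPM of 6 genes held by retained-intron transcripts, by library; a point is a library and a line the mean of 3. Microglia are highest for summed Gtpbp2, at 59.8 to 63.5 TPM, and below cerebellar granule cells for Gtpbp2-201, at 23.2 to 24.1 TPM against 41.3 to 42.0.

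Because Gtpbp1 and Gtpbp2 are paralogs, their ratio was compared between neurons and glia. On summed TPM, Gtpbp2 to Gtpbp1 was 0.738 in neuronal and 1.08 in glial libraries on average (log2 difference -0.61, exact two-sided permutation over 12 and 6 libraries, adjusted p = 0.036 over 21 tests), and the libraries overlapped. The adjusted p was above 0.05 in 13 of the 18 fits that left out 1 library, over which the difference ran from -0.70 to -0.55. With protein-coding transcripts alone the log2 difference was -0.01 (exact permutation, adjusted p = 0.99), and with CPM -0.13 (exact permutation, adjusted p = 0.73). The ratio of coding transcripts was 0.479 ± 0.081 (SD, n = 3) in dentate gyrus granule cells, 0.575 ± 0.036 in layer V neurons, 0.442 ± 0.016 in cerebellar granule cells, 0.593 ± 0.089 in astrocytes and 0.561 ± 0.019 in microglia. Interneurons stood above these at 0.885 ± 0.043, with 0.835, 0.907 and 0.913 in their libraries. Gtpbp1 was the more abundant of the pair by this measure in every library.

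Pelo (chr13:115088355-115090186, minus strand, inside Itga1) was higher in neurons than in glia, at a log2 difference of 0.49 ± 0.05 (edgeR adjusted p = 7.0e-08). Its TPM ranged from 30.3 to 33.1 in interneurons, 28.9 to 30.9 in layer V neurons, 25.0 to 31.5 in dentate gyrus granule cells and 21.0 to 21.5 in cerebellar granule cells, against 17.01 to 18.2 in microglia and 14.6 to 16.7 in astrocytes. All neuronal libraries thus lay above all glial ones on TPM. On CPM, layer V neurons came first, at 26.8 ± 0.85 (SD, n = 3) against 23.6 ± 0.57 in interneurons, which were not separated from them (edgeR adjusted p = 0.059). Cerebellar granule cells and microglia were not separated on CPM (edgeR adjusted p = 0.25), nor microglia and astrocytes (edgeR adjusted p = 0.42). The level of Pelo is uncertain because 43.4% of the 31-base words of its transcript also occur in Gm49395, a same-strand gene that covers it, and 26.1% in the opposite-strand Gm10734. Those genes were listed at no more than 1.24 and 0.37 TPM in any library.

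Hbs1l (chr10:21295979-21368898, plus strand) was the most even of the 10. It reached 70.1, 70.0 and 64.9 TPM in cerebellar granule cells, while all other libraries lay between 36.7 and 49.0 TPM. Neurons and glia differed by 0.01 ± 0.02 on the log2 scale (edgeR adjusted p = 0.61). On CPM, dentate gyrus granule cells, layer V neurons, interneurons and microglia, in that order, were not separated from their neighbours (edgeR adjusted p between 0.37 and 0.72). The ratio of Hbs1l to its partner Pelo was 3.21 ± 0.11 (SD, n = 3) in cerebellar granule cells and 3.05 ± 0.28 in astrocytes, against 1.28 ± 0.02 in layer V neurons. Layer V libraries, at 1.27 to 1.31, lay below all others (log2 difference from the other 5 types -0.79, exact permutation, adjusted p = 0.026), and cerebellar granule cells above the others by 0.80 (exact permutation, adjusted p = 0.026), overlapping astrocytes. Both tests treat the libraries of a type as independent. Hbs1l was here summed over all its transcripts, the short form described next included, and the part of that form in the ratio was not tested.

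Hbs1l also yields a short coding transcript, Hbs1l-203, with 612 codons in 5 exons, that shares its first 139 codons with the full-length Hbs1l-209 (682 codons) and then ends in an exon of its own. In human cells a short splice form of this kind is known as the counterpart of yeast Ski7, which joins the exosome to the Ski complex. The point at which the coding sequences part is shown with 30 shared bases in lower case and the next 30 in capitals.
Hbs1l-209, chr10:21307750-21307779 joined to chr10:21336967-21336996: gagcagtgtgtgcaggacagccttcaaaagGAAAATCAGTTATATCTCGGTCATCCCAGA
Hbs1l-203, chr10:21307750-21307779 joined to chr10:21309099-21309128: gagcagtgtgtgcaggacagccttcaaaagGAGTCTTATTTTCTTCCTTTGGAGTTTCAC
The short form was 8.48, 8.14 and 6.99 TPM in cerebellar granule cells (11.5% ± 0.67 of the gene), 4.31, 4.75 and 3.15 TPM in microglia (9.72% ± 1.83) and 2.96, 3.57 and 2.37 TPM in dentate gyrus granule cells (6.50% ± 1.37). It stayed at or below 1.51 TPM in every library of the other 3 types, so that the types did not divide as neurons and glia (exact permutation of the share, adjusted p = 0.80). Hbs1l-203 shares 68.4% of its 31-base words with other genes, mostly Gm9923. Gm9923 was listed at 0.65 TPM or less in every library, and how reads were split between them was not tested.

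Zfp598 (chr17:24669687-24682016, plus strand), the collision sensor, was highest in microglia (30.4, 31.2 and 31.7 TPM) and cerebellar granule cells (31.5, 30.8 and 29.4 TPM), which overlapped. It was lowest in layer V neurons at 10.6, 10.5 and 10.98 TPM, below every other library. The remaining types lay between, at 12.7 to 15.6 TPM in astrocytes, 20.5 to 21.4 in dentate gyrus granule cells and 20.6 to 22.7 in interneurons. On CPM, microglia exceeded cerebellar granule cells by 0.22 ± 0.06 (log2; edgeR adjusted p = 0.0014), but with protein-coding transcripts alone cerebellar granule cells came first, at 29.6 TPM ± 0.97 against 24.4 ± 1.08. Against the other 5 types Zfp598 was 0.92 ± 0.04 higher in microglia (edgeR adjusted p = 2.3e-13) and 0.98 ± 0.05 lower in layer V neurons (log2 -0.98, edgeR adjusted p = 2.1e-12). Dentate gyrus granule cells and interneurons were not separated (edgeR adjusted p = 0.69).

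Nemf (chr12:69310522-69357165, minus strand) and Ltn1 (chr16:87376651-87432612, minus strand), which act on the same split large subunit, were both highest in cerebellar granule cells. Nemf stood there at 46.0, 46.1 and 46.2 TPM, above all other libraries, and 0.92 ± 0.04 above the other 5 types on the log2 scale (edgeR adjusted p = 3.7e-14). Ltn1 stood there at 14.8, 14.7 and 17.03 TPM, 0.85 ± 0.04 above the others (edgeR adjusted p = 1.3e-12). At the lower end the pair diverged. Nemf was lowest in astrocytes (17.2, 13.9 and 12.8 TPM) and intermediate in microglia (27.5, 29.4 and 30.2 TPM), whereas Ltn1 was lowest in microglia (6.09, 6.22 and 6.28 TPM) and intermediate in astrocytes (9.40, 8.95 and 7.99 TPM).

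The ratio of Nemf to Ltn1 was accordingly 4.68 ± 0.15 (SD, n = 3) in microglia and 1.66 ± 0.15 in astrocytes, with the 4 neuronal types between, at means of 2.37 to 3.19. Microglia lay above all other libraries (log2 difference 0.89, exact permutation, adjusted p = 0.026) and astrocytes below all others (log2 difference -0.91, exact permutation, adjusted p = 0.026). Here too the libraries of a type were treated as independent. Neurons as a whole did not differ detectably from glia as a whole (0.02, exact permutation, adjusted p = 0.99), the glial types lying on either side. Counting only protein-coding transcripts, the ratio in microglia was 2.98 ± 0.04, next to layer V neurons at 2.74 ± 0.14, and in astrocytes 1.23 ± 0.07.

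**Figure D4:**
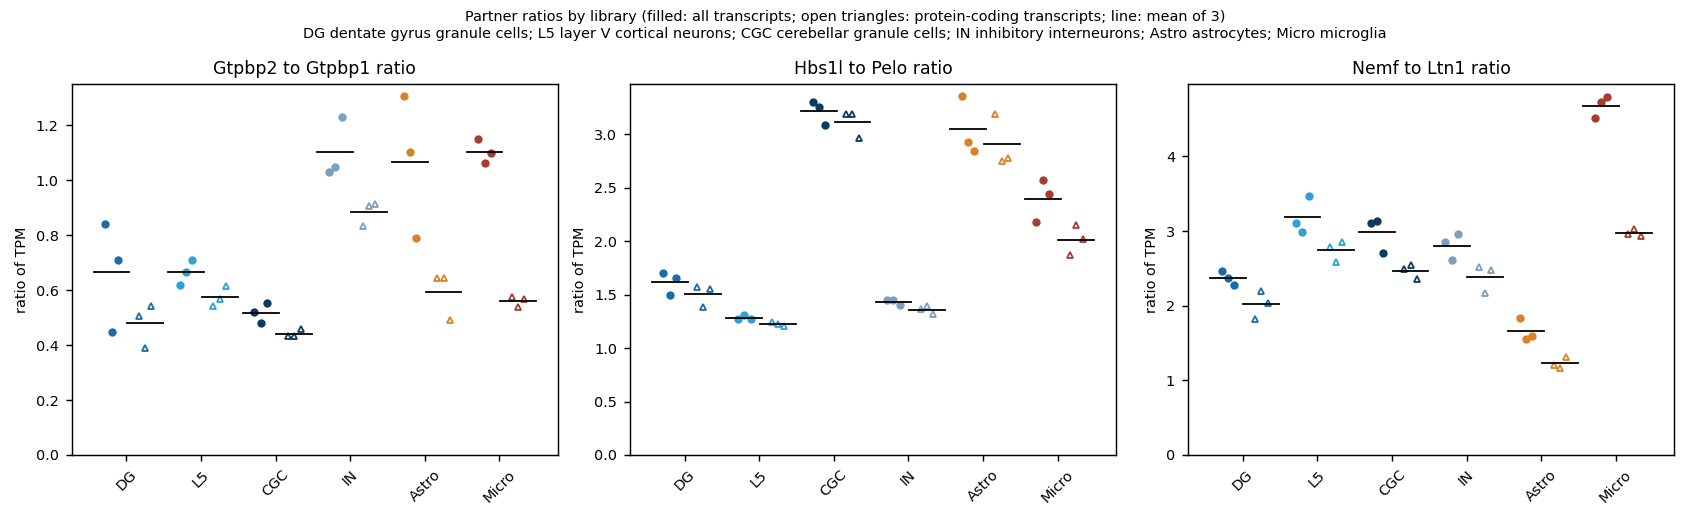
Ratio of TPM (vertical axes, from 0) between partner genes in each library: filled points over all transcripts, open triangles over protein-coding transcripts only, lines the mean of 3. The glial points for Gtpbp2 to Gtpbp1, 0.790 to 1.31 over all transcripts, drop to 0.490 to 0.644 with coding transcripts, and Nemf to Ltn1 is lowest in astrocytes by both measures.

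Eif2ak4 (chr2:118388618-118475234, plus strand), which encodes GCN2, was 11.4 to 12.0 TPM in interneurons, 9.71 to 10.4 in cerebellar granule cells, 8.36 to 8.85 in microglia and 7.62 to 8.41 in dentate gyrus granule cells. Astrocytes held 6.46, 5.35 and 5.44 TPM. Layer V neurons were lowest, at 3.97, 3.96 and 4.13 TPM, below every other library. Against the other 5 types the log2 difference in layer V neurons was -1.04 ± 0.06 (edgeR adjusted p = 3.5e-11), and in interneurons 0.54 ± 0.05 (edgeR adjusted p = 5.8e-08). Interneurons and cerebellar granule cells were not separated on CPM (edgeR adjusted p = 0.21), nor were cerebellar granule cells and microglia (edgeR adjusted p = 0.36) or dentate gyrus granule cells and astrocytes (edgeR adjusted p = 0.053). Neurons and glia differed by -0.07 ± 0.04 (edgeR adjusted p = 0.16), with a neuronal type at each end of the order.

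Map3k20 (chr2:72285637-72442610, plus strand), which encodes ZAK, spread the most. Interneurons held 12.2, 10.95 and 10.3 TPM, microglia 6.37, 5.91 and 6.26, and cerebellar granule cells 5.67, 3.69 and 3.82. Dentate gyrus granule cells held 4.25, 3.02 and 3.14 TPM, astrocytes 2.46, 2.25 and 2.65, and layer V neurons 1.65, 1.32 and 1.76. Interneurons lay above all other libraries, 1.60 ± 0.11 above the other types on the log2 scale (edgeR adjusted p = 6.2e-10), and layer V neurons below all others (-1.46 ± 0.15, edgeR adjusted p = 5.7e-08). Microglia and cerebellar granule cells were not separated (edgeR adjusted p = 0.069). The interneuron libraries were also those with the most oligodendrocyte marker RNA, whose part in the level of Map3k20 was not tested.

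Coding forms of Map3k20 are known by length, a long alpha form, whose tail is the part linked to ribosome sensing, and a short beta form. The transcripts of these lengths are Map3k20-201, with 802 codons, and Map3k20-204, with 454 codons. Both share their first 329 codons, and the sequences that follow are shown with the shared 30 bases in lower case and the next 30 in capitals.
Map3k20-204, chr2:72398396-72398425 joined to chr2:72401989-72402018: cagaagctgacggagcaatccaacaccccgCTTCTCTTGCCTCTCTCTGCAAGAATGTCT
Map3k20-201, chr2:72398396-72398425 joined to chr2:72410149-72410178: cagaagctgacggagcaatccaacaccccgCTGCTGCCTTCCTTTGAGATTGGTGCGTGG
The short form was the main one in every type, from 66.0% ± 3.31 of the gene in microglia to 96.1% ± 0.96 in cerebellar granule cells. It made up 89.0% in neuronal and 67.7% in glial libraries on average, with no overlap (exact two-sided permutation, p = 5.4e-05, the smallest that 12 libraries against 6 can give, adjusted p = 0.00054). Libraries of a type are not independent samples of neurons or glia, and 4 types against 2 cannot fall below p = 0.0667 in such a permutation. This test, too, was added after the shares had been seen. The long form was 15.4% ± 2.37 in layer V neurons, 15.3% ± 2.09 in astrocytes and 15.2% ± 0.87 in microglia, against 7.23% ± 1.70 in interneurons, while cerebellar and dentate gyrus granule cells held 3.56% ± 1.37 and 2.63% ± 1.57. In TPM it was highest in microglia (1.01, 0.842 and 0.980) and interneurons (0.738, 0.712 and 0.943), and all other libraries were at 0.396 or below. The interneuron excess of Map3k20 was therefore mostly of the short form, at 10.4, 9.68 and 9.10 TPM against 5.49 or less in any other library.

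Atf4 (chr15:80255184-80257541, plus strand), the transcription factor translated when eIF2 is phosphorylated, was 161, 166 and 176 TPM in interneurons, 135, 139.5 and 145 in microglia and 122, 119 and 119 in layer V neurons. Cerebellar granule cells held 111, 110.1 and 107 TPM and astrocytes 86.2, 85.2 and 83.1. Dentate gyrus granule cells were lowest at 56.8, 75.0 and 69.3 TPM, below every other library and 1.02 ± 0.05 below the other types on the log2 scale (log2 -1.02, edgeR adjusted p = 1.4e-12). Microglia and interneurons were not separated on CPM (edgeR adjusted p = 0.29), nor were cerebellar granule cells and astrocytes (edgeR adjusted p = 0.087). Neurons and glia differed by -0.23 ± 0.03 (edgeR adjusted p = 7.1e-06). These are amounts of ribosome-bound mRNA, which do not show how often its upstream frames are bypassed.

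Between neurons and glia as wholes, 7 of the 10 genes differed (83.3% of all genes), 5 higher in neurons (Gtpbp1, Gtpbp2, Pelo, Ltn1 and Nemf) and 2 lower (Zfp598 and Atf4), where 36.4% and 46.8% of all genes were called in those directions. No difference reached 2-fold, which 46.3% of all genes did. The sizes ran from 0.18 ± 0.05 for Gtpbp2 (edgeR adjusted p = 0.0027) to 0.49 for Pelo on the log2 scale. These are differences of class means. Of the 7 genes, only Pelo had the mean CPM of every neuronal type on 1 side of both glial types. For Gtpbp1, microglia (111 CPM) stood above layer V neurons (71.3) and interneurons (58.1). For Nemf, microglia (45.3) stood above all neuronal types but cerebellar granule cells. For Ltn1, astrocytes (33.6) did so too, but were not separated from dentate gyrus granule cells (33.4, edgeR adjusted p = 0.92). On TPM, astrocytes (8.78) lay below dentate gyrus granule cells (10.5) and interneurons (9.41) for Ltn1. For Atf4, interneurons (131 CPM) stood above astrocytes (88.1). The direction for Gtpbp2 is not settled, since counts corrected for the mean length of its transcripts gave -0.35 (edgeR adjusted p = 0.0017).

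The genes whose log2 CPM followed each member most closely over the 18 libraries were searched among 16067 other protein-coding genes. They were Foxj2 and Upf1 for Gtpbp1 (Pearson r = 0.99 and 0.99), Ppfia4 and Gm42742 for Gtpbp2 (0.96 and 0.96), Rangap1 and Rtn4 for Pelo (0.96 and 0.95), Tspan9 and Unc13c for Hbs1l (0.98 and 0.97) and Plekhm1 and Ptpn23 for Zfp598 (0.98 and 0.98). For Ltn1 they were Zfp266 and Ireb2 (0.98 and 0.98), for Nemf Ncl and Mkrn1 (0.98 and 0.98), for Eif2ak4 Zfp629 and Osbpl7 (0.95 and 0.93), for Map3k20 Adck2 and Ppip5k2 (0.91 and 0.90) and for Atf4 Arfgap3 and Vps28 (0.97 and 0.95). The 18 libraries fall into 6 types of 3, so these values describe likeness over few distinct points.

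Other genes of the same pathways were read in 5 lists. Of 20 genes for sensing collisions and releasing ribosomes, 11 were higher in neurons, 8 lower and 1 not called. Of all genes, 36.4% were called higher in neurons and 46.8% lower. The median log2 difference was 0.13 against -0.18 over all genes tested. Gspt2, a release factor GTPase, was 1.94 ± 0.04 higher in neurons (edgeR adjusted p = 2.6e-18) and Rnf14, an E3 ligase that acts on stalled ribosomes with a trapped factor in the A site, 1.79 ± 0.03 higher (edgeR adjusted p = 9.4e-19). In microglia against the other 5 types, 10 of the 20 were higher and 10 lower (43.4% and 37.6% of all genes). Gcn1, a ribosome-binding activator of GCN2, was 1.59 ± 0.04 higher there (edgeR adjusted p = 2.9e-16), Ascc2, a part of the complex that disassembles collided ribosomes, 1.52 ± 0.05 higher, and Rack1, a small-subunit scaffold, 1.34 ± 0.04 higher. Rnf14 (-2.37 ± 0.05) and Gspt2 (-1.83 ± 0.05) were among the 10 lower in microglia. Ascc2 was lower in cerebellar granule cells (-1.13 ± 0.06), where its partner Ascc3, the helicase, was higher (1.14 ± 0.06), and so was Gigyf2, a repressor of initiation on stalled mRNAs (1.05 ± 0.04).

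Of 15 genes for quality control of nascent chains and decay of stalled mRNAs, 8 were higher in neurons, 4 lower and 3 not called. Of all genes, 36.4% were called higher in neurons and 46.8% lower. The median of the 15 was 0.08 against -0.18 over all genes tested. Tcf25, a partner of listerin, was 1.25 ± 0.03 higher in neurons (edgeR adjusted p = 5.4e-17). In cerebellar granule cells 12 of the 15 were higher and 2 lower (36.0% and 46.1% of all genes). The median was 0.42 against -0.27 over all genes tested. Among the higher ones were Klhdc10, which helps to recognise tails added to stalled chains (1.63 ± 0.04), Ttc37, of the Ski complex (1.53 ± 0.04), and Dis3, an exosome nuclease (1.21 ± 0.05). Layer V neurons had 10 of 15 lower and 3 higher, where 35.4% and 37.8% of all genes were called in those directions (median -0.23 against -0.02 over all genes tested), Ttc37 (-1.29 ± 0.05) and N4bp2, a relative of the nuclease that cuts stalled mRNAs (-2.17 ± 0.13), among the lower ones.

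Around GCN2, 10 of 15 genes that control the integrated stress response were higher in neurons and 5 lower (36.4% and 46.8% of all genes). The median was 0.20 against -0.18 over all genes tested. The lower count was 3 in 16 of the 18 fits that left out 1 library, 4 without microglia replicate 2 and 5 without interneuron replicate 1, with 10 higher in each. Eif2ak2, the eIF2 kinase PKR, was 3.37 ± 0.10 higher in microglia than in the other types (edgeR adjusted p = 8.7e-16). It was not particular to microglia. Neurons stood below glia as a whole (log2 -3.78 ± 0.10, 2.44 against 32.3 CPM), with no overlap of libraries, so astrocytes too were above all neuronal libraries. Impact, which competes with GCN2 for GCN1, was 2.13 ± 0.04 higher in interneurons (edgeR adjusted p = 3.3e-18) and lower in microglia by a log2 difference of -2.41 ± 0.05 (edgeR adjusted p = 8.6e-18). Interneurons thus had the highest mean levels of Eif2ak4 and a raised level of Impact, and microglia a raised Gcn1 with a lowered Impact. In cerebellar granule cells 12 of the 15 were higher and 3 lower, where 36.0% and 46.1% of all genes were called in those directions (median 0.46 against -0.27 over all genes tested). The higher ones included Eif2ak3, the eIF2 kinase PERK (1.34 ± 0.05), and Nck1, an adaptor that modulates eIF2 phosphorylation (1.65 ± 0.05).

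ATF4 target genes were split. Of 33 tested (Fgf21 of the 34 did not pass the filter), 10 were higher in neurons, 22 lower and 1 not called. Of all genes, 36.4% were called higher in neurons and 46.8% lower. The median of the targets was -0.91 against -0.18 over all genes tested. Asns, asparagine synthetase, was 2.87 ± 0.04 higher in neurons (edgeR adjusted p = 4.7e-20), Chac1, a glutathione-degrading enzyme, 2.68 ± 0.09 higher and Gars, a tRNA synthetase, 1.26 ± 0.03 higher. Nupr1, a stress-induced nuclear protein (-6.56 ± 0.14), Phgdh, the first enzyme of serine synthesis (-6.20 ± 0.06), and Slc7a11, a cystine carrier (-5.43 ± 0.10), were lower in neurons. Phgdh (6.17 ± 0.06) and Slc7a11 (6.25 ± 0.10) were higher in astrocytes than in the other types, where Atf4 itself was 0.20 lower (log2 -0.20 ± 0.04, edgeR adjusted p = 0.00043). In dentate gyrus granule cells, with the lowest Atf4, 17 of 33 targets were lower and 11 higher (31.4% and 35.3% of all genes). The median was -0.45 against -0.01 over all genes tested. Slc3a2, an amino acid carrier chain, was among the lower ones (-1.42 ± 0.05) and Stc2, a secreted glycoprotein, was 4.57 ± 0.14 higher. Interneurons, with the highest Atf4 TPM, had 15 targets higher and 13 lower (35.1% and 32.2% of all genes, median -0.09 against -0.02). Layer V neurons, next after microglia in Atf4 TPM, had 10 higher and 20 lower (37.8% and 35.4% of all genes, median -0.39 against -0.02). In microglia, between interneurons and layer V neurons in Atf4 TPM, 19 were higher and 10 lower (43.4% and 37.6% of all genes, median 0.72 against 0.09). Cebpb (4.22 ± 0.07) and Atf3 (4.12 ± 0.19), both transcription factors, were higher in microglia, and Asns (-2.91 ± 0.06) and Chac1 (-3.04 ± 0.13) lower. Several of these genes are known markers or metabolic enzymes of glia.

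Downstream of ZAK, 6 of 11 kinases were higher in neurons, 3 lower and 2 not called. Of all genes, 36.4% were called higher in neurons and 46.8% lower. The median of the kinases was 0.26 against -0.18 over all genes tested. Mapk10 (2.47 ± 0.04) and Mapk8 (1.99 ± 0.05), which encode JNK kinases, and Map2k4 (1.84 ± 0.03), which activates JNK and p38, were higher in neurons. In interneurons, where Map3k20 was highest, 5 were higher and 6 lower (35.1% and 32.2% of all genes). Mapk9 (1.14 ± 0.03) was among the higher ones and the p38 kinases Mapk12 (-3.42 ± 0.15) and Mapk11 (-1.41 ± 0.16) among the lower ones. Mapk12 was 4.21 ± 0.08 higher in cerebellar granule cells, and Mapk14, the main p38 kinase, was higher in microglia (1.20 ± 0.04) and lower in astrocytes (-1.22 ± 0.04).

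**Figure D5:**
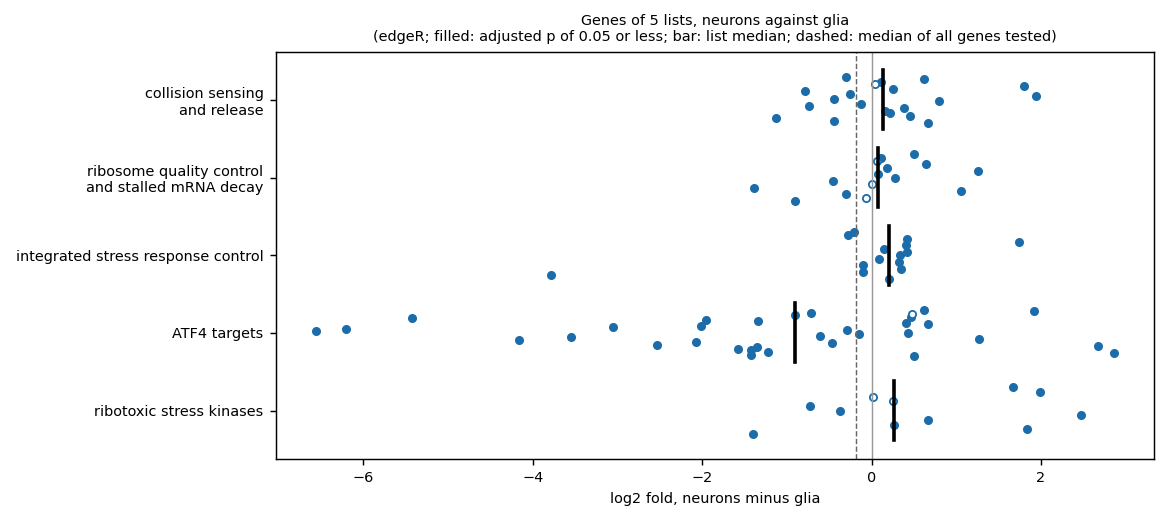
Log2 difference between neurons and glia (horizontal axis) of each gene in the 5 lists, from edgeR; filled points passed an adjusted p of 0.05, the black bar is the list's median and the dashed line the median of all genes tested, -0.18. Most genes of the other 4 lists lie within 2-fold, while ATF4 targets reach from -6.56 to 2.87 with a median of -0.91.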

How the data were processed

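RiboTag mRNA libraries (paired-end, stranded kit) were trimmed by the authors with cutadapt 3.5 and pseudo-aligned with kallisto 0.46.2 to GENCODE M24 transcripts. The strand setting is not given in the sources used here. The deposited tables list, for each transcript, its length, estimated counts and TPM, and both values were summed over the transcripts of a gene symbol. Where symbols had several gene IDs (Ddit3), the ID with more counts was used. Summed estimated counts were rounded, filtered with filterByExpr, scaled by TMM and fitted with edgeR 4.0.16 (glmQLFit, R 4.3.3) over the 18 libraries, 1 per replicate, without covariates, and p-values were adjusted by Benjamini-Hochberg over 20524 genes. The p-values measure the spread between these libraries. TPM is relative to length and CPM is not. Ratios and transcript shares were tested by exact permutation of libraries. Libraries of a type are not independent samples of the types compared, so these p-values do not measure the spread between types. The fit was tested on simulated data. Pathway genes were named where the change was at least 2-fold and groups did not overlap, up to 3 a direction, list and comparison. Coordinates and sequences are from GRCm38. Gene positions, codons, introns and shared 31-base words were taken from an earlier GENCODE release than M24. The members and lists were chosen with earlier results of these data known. Alternatives were DESeq2 1.42.0, no filter, a length offset, coding transcripts only, batch 2 libraries, all 22 libraries with a batch term, a replicate block and leaving out each library. In the fit of 22 libraries, second runs of a replicate entered as separate samples, so its p-values count those replicates more than once.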

Additional observations from a re-analysis of the deposited data

How the results depend on the processing

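Of 490 single-gene values recomputed under 7 other settings, 457 kept their side of the threshold (and, where called, their direction). Another 15 lost the threshold, 17 gained it and 1 reversed. Changes of sign where neither value was called numbered 11 and were not counted as reversals. The reversal was Gtpbp2 between neurons and glia, at -0.35 with an offset for effective length (edgeR adjusted p = 0.0017). With that offset 0 genes reached 2-fold in dentate gyrus granule cells and 1 in layer V neurons, where 1 did so too with batch 2 libraries, and 2 in cerebellar granule cells with 22 libraries and a batch term; the cause was not tested. The log2 difference of Gtpbp2 to Gtpbp1 was -0.0087 with coding transcripts, -0.13 with CPM and -0.61 over cell types (exact permutation, p = 0.27). Leaving out 1 library gave counts of differing genes of 10 to 10 among types, 7 to 8 between neurons and glia, 4 to 6 in dentate gyrus granule cells, 9 to 10 in layer V neurons, 7 to 9 in cerebellar granule cells, 6 to 9 in interneurons, 9 to 10 in astrocytes and 9 to 10 in microglia. Counts at 2-fold were then 0 to 1 in dentate gyrus granule cells, 2 to 3 in layer V neurons and 1 to 2 in cerebellar granule cells, and pairs 124 to 131. The ratios ran from -0.70 to -0.55 for Gtpbp2 to Gtpbp1, -0.70 to -0.55 for Hbs1l to Pelo (past the threshold without cerebellar replicate 1) and -0.15 to 0.17 for Nemf to Ltn1. Of 45 same-number pairs of libraries, 7 had a correlation of deviations over 0.1. Pairs with different numbers are not given beside them, so these values cannot tell whether replicate numbers pair the samples. With the replicate block 127 pairs differed and 7 genes differed between neurons and glia, with no count changed by over 1.5 times. Coding transcripts alone turned the split of ribotoxic kinases to 7 higher and 2 lower, the length offset that of collision genes to 9 and 10, and no filter, the batch alternatives or leaving out any of 16 libraries that of stress response genes to 10 and 3.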

Other observations

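In 4 replicates sequenced a second time, the CPM of the 10 genes moved by at most 0.21 on the log2 scale (Map3k20 in dentate gyrus granule cells), with a median of 0.05 over the 40 gene and replicate pairs. The labels give 1 of these second runs (layer V replicate 1) another sex than the first run. Ddx3y, a Y-linked gene, was 0.086 TPM in the first and 0.034 TPM in the second, against 27.0 TPM in layer V replicate 3.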
